A study of Mus musculus with 6 samples.

Results

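The replication-dependent histone genes make up 67 of the 54446 genes counted in 6 total RNA libraries of regulatory T cells from mouse tumours. They were taken as the protein-coding genes whose symbol in the GENCODE M21 annotation starts with Hist1h, Hist2h, Hist3h or Hist4h. The symbol rule uses no measured value, but the group was picked for description with earlier results of these data known. A further 3 genes with such symbols were not protein coding and were left out. By the symbol, 6 members encode linker histone H1, 18 encode H2A, 18 encode H2B, 12 encode H3 and 13 encode H4. The Hist1 cluster on chromosome 13 holds 54 members, the Hist2 cluster on chromosome 3 holds 10, Hist3 on chromosome 11 holds 2 and Hist4 on chromosome 6 holds 1.

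The study asked how the loss of Ythdf2, a cytoplasmic reader of N6-methyladenosine in mRNA, alters gene expression in regulatory T cells (Treg), a CD4 lineage defined by Foxp3 that restrains immune responses. B16F10 melanoma cells, an established mouse line, were grown under the skin of the flank, and live CD45+ CD4+ GFP+ cells were sorted from the tumours. Of the 6 libraries, 3 are controls, titled WT Control with the genotype Foxp3Cre Ythdf2 fl/+. The other 3 are labelled Ythdf2 cKO (Foxp3Cre Ythdf2 fl/fl), called cKO libraries here. By these genotypes both groups carry the Foxp3-driven Cre and at least 1 floxed Ythdf2 allele, although the control titles say WT. No library then comes from a mouse without Cre, and no strain or age was taken from the sources used here. Control libraries 1 and 2 and cKO library 1 came from cage 1, and control library 3 and cKO libraries 2 and 3 came from cage 2.

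Replication-dependent histone genes supply the proteins that wrap newly copied DNA, and their mRNAs rise as cells enter S phase and are destroyed when DNA synthesis ends. Their mRNAs lack introns and, unlike nearly all other animal mRNAs, end in a short stem-loop instead of a poly(A) tail. The stem-loop is bound by SLBP, which serves the processing, translation and decay of the message. H2A, H2B, H3 and H4 form the core of the nucleosome, and H1 binds the linker DNA where it enters and leaves the core. A total RNA library, made without selection for poly(A), can hold these transcripts.

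A match to the stem-loop consensus within 150 bases of the stop codon was present in 46 of the 67 annotated transcripts. It came in 8 forms of 16 bases, each shown here once because the stem tells H4 messages from the others. The sequences are from GENCODE M21 transcripts, 5′ to 3′ with up to 5 bases on each side, the capitals mark the stem-loop, and positions are in mm10.
Hist1h1e (chr13:23621777-23621802, minus strand): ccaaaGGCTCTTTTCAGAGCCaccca
Hist1h2bb (chr13:23747198-23747223, plus strand): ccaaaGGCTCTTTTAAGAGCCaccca
Hist2h2ac (chr3:96220413-96220438, minus strand): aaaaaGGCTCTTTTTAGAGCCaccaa
Hist1h3g (chr13:23535884-23535909, plus strand): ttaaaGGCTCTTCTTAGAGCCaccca
Hist1h4d (chr13:23581945-23581970, plus strand): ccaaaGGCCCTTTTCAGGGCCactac
Hist1h4j (chr13:21735432-21735457, plus strand): ctaaaGGTCCTTTTCAGGACCaccac
Hist2h4 (chr3:96262934-96262959, minus strand): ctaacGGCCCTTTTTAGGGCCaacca
Hist1h4a (chr13:23760795-23760820, minus strand): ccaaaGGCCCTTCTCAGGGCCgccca
The form of Hist1h1e was the commonest, with 26 members, followed by that of Hist1h4d with 7 and that of Hist1h2bb with 6. All 34 stem-loops found in H1, H2A, H2B and H3 members started with GGCTC. Among the 12 found in H4 members, 10 started with GGCCC and 2 with GGTCC. The other 21 transcripts held no match, and no match here says only that the annotated model lacks these letters in that window.

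The promoters of the classes also differed in sequence. RefSeq promoters (GRCm38.p6, 250 bases before to 50 after the start) were found for 61 members and searched on both strands. The CCAAT box was present in 85.2% of them and in 37.4% of all 32851 RefSeq promoters. All 49 promoters of H1, H2A, H2B and H3 members held it, against 3 of 12 for H4. The TATA motif TATAAA was in 55.7% of member promoters and 13.6% of all. The octamer ATTTGCAT was in 7 of 18 H2A and 6 of 16 H2B promoters, in none of the 27 others, and in 1.74% of all promoters. AAACACA, the core of the H1 box, was in 4 of 5 H1 promoters and 7.18% of all. GGTCC was in 11 of 12 H4 promoters and in 45.5% of all, so this short motif is common everywhere. A match describes the letters in the window and is not evidence of binding. The 250 bases before the start of 1 promoter of each kind are shown 5′ to 3′ on the gene's strand, with matches to these motifs on either strand in capitals (GGTCC only in the H4 promoter).
Hist1h1e (chr13:23622559-23622808, minus strand): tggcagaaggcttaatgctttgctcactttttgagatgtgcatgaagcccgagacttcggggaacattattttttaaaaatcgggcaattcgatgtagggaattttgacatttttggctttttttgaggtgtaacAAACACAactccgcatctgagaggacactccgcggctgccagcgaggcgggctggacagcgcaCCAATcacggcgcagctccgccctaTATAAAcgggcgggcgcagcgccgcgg
Hist1h2bb (chr13:23746484-23746733, plus strand): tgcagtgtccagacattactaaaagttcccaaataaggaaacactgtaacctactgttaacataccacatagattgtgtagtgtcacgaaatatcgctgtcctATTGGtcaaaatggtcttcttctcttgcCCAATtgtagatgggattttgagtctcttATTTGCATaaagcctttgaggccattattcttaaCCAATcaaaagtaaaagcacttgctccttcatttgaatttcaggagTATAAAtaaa
Hist1h4d (chr13:23581318-23581567, plus strand): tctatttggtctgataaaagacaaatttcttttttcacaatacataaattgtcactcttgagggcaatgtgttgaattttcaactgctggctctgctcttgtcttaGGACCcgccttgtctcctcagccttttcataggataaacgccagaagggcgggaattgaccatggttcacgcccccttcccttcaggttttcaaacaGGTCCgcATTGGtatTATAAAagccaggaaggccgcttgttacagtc
Hist1h1e shows the H1 box followed by CCAAT and TATAAA, Hist1h2bb shows CCAAT on both strands and 1 octamer, and Hist1h4d shows GGTCC on both strands beside TATAAA and is 1 of the 3 H4 promoters with CCAAT. Among the members there were 12 divergent pairs of an H2A and an H2B gene, with 176 to 306 bases between their annotated starts.

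Histone messages within a class are close copies, which bears on how far their reads can be told apart. All 13 H4 members encode 1 protein through 12 distinct coding sequences. The 12 H3 members encode 3 proteins, the 18 H2A members 9 and the 18 H2B members 12, while each of the 6 H1 members encodes its own. For each member, the share of 50-base windows of its transcripts that occur in no other annotated gene was computed. A member with more than 50% such windows is called mostly unique here, and 33 of 67 were. At least 1 read was counted for 65 members, and 54 passed the low-count filter. The 13 that did not pass had a median of 10.2% unique windows against 51.8% for the 54, and 10 of the 13 were not mostly unique. Hist1h2ba, of H2B, and Hist2h3c1, of H3, had no count in any library. Hist2h3c1 lies wholly inside the same-strand gene model Gm20634 and has 0% unique windows.

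**Figure D1:**
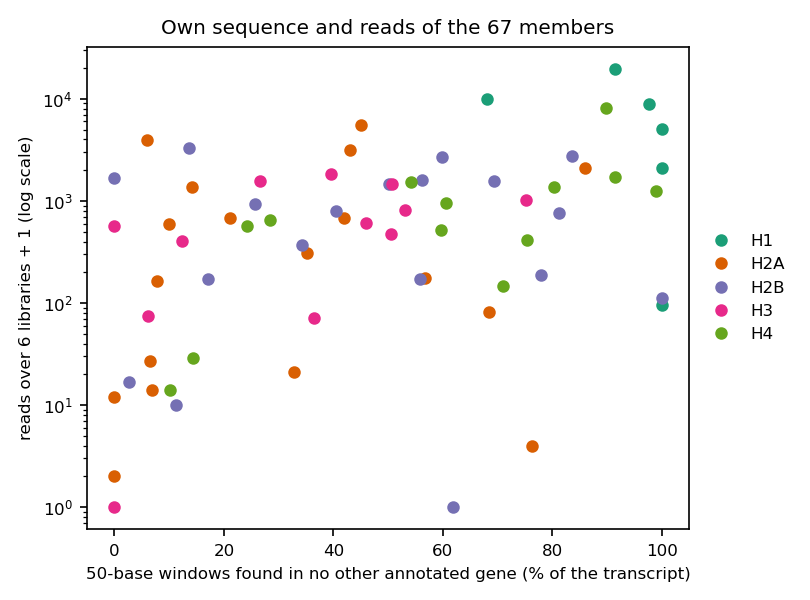
Reads of each of the 67 members, summed over 6 libraries with 1 added (log scale), against the percent of its 50-base windows found in no other annotated gene; each point is a member, coloured by class. H1 members sit at the right, and the members with the fewest reads are mostly at the left, under 50%.

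The libraries held 5602053 (cKO library 1) to 13602069 (control library 2) gene counts, and histone members took 0.119% to 0.288% of them. cKO library 1 also had the largest share of records that fell in no gene, 35.8%. Mitochondrial ribosomal RNA took 42.6% in control library 3 and 9.97% to 19.2% in the others. The scaling factors (TMM) were 0.713 for that library and 1.04 to 1.09 for the rest, and CPM (the count scaled to a fixed library size) below uses TMM-scaled library sizes. Ythdf2 itself was at 124, 102 and 93.1 CPM in control libraries 1, 2 and 3 and at 90.1, 104 and 104 CPM in cKO libraries 1, 2 and 3, with overlapping groups (log2 fold change -0.10 ± 0.16 SE, edgeR quasi-likelihood adjusted p = 1.00). Counts over the whole gene, not over the floxed exons, were available here, so the labels were not checked by this gene. The summed CPM of 10 melanoma markers ran from 416 to 5712 in controls and from 58.1 to 3887 in cKO libraries, with all 3 cage 2 libraries above all 3 of cage 1. The 6 Treg markers ran from 3225 to 5940 CPM in controls and from 3643 to 5835 CPM in cKO libraries. The summed CPM of 10 macrophage and monocyte markers ran from 16.5 to 229 and from 6.22 to 100.3, and that of 4 erythroid markers from 0.353 to 21.6 and from 11.8 to 131. B-cell markers summed to 77.0 to 201 CPM and fibroblast markers to 2.64 to 115 CPM over all libraries. Among CD8 and NK-cell markers (7.53 to 25.7 CPM), Klrb1c was at 0 in all 6. No label states that the libraries come from different mice, and the labels set apart only those of different cages or groups. A p-value here therefore measures spread between samples that may in part be technical. In bulk RNA, fewer cells in S phase and less histone RNA per cell cannot be told apart.

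Summed over all members, histone reads were at 2671, 2128 and 1741 CPM in control libraries 1, 2 and 3 and at 1089.8, 1614 and 1389 CPM in cKO libraries 1, 2 and 3. All 3 control libraries lay above all 3 cKO libraries, and the mean in cKO libraries was 0.626 times that of controls. The gap between control library 3 and cKO library 2 was small beside the spread of the controls (SD 467, n = 3). With library sizes taken as total gene counts, without TMM, control library 3 was at 1237 CPM and lay below cKO libraries 2 and 3 (1679.6 and 1444), so the separation of the groups depends on the scaling.

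Each of the 5 classes gave nearly the same ratio. H1 reads summed to 1105, 933 and 655 CPM in controls and 482, 663 and 581 CPM in cKO libraries, a ratio of means of 0.641 with overlapping groups. H2A summed to 481, 339.7 and 309 CPM in controls and 209, 292 and 219.6 CPM in cKO libraries (ratio 0.638), and H2B to 456, 363 and 302 against 186, 270.0 and 229.6 CPM (ratio 0.612). These core classes did not overlap between groups. H3, with 218, 169.7 and 137 CPM in controls and 68.6, 126 and 133 CPM in cKO libraries, had a ratio of 0.626 and a gap of a few CPM between control library 3 and cKO library 3. H4 had the widest gap, with 410.4, 322 and 338 CPM in controls and 143, 264 and 226 CPM in cKO libraries (ratio 0.591). No test was run on these sums, because the members were chosen with earlier results of these data known.

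**Figure D2:**
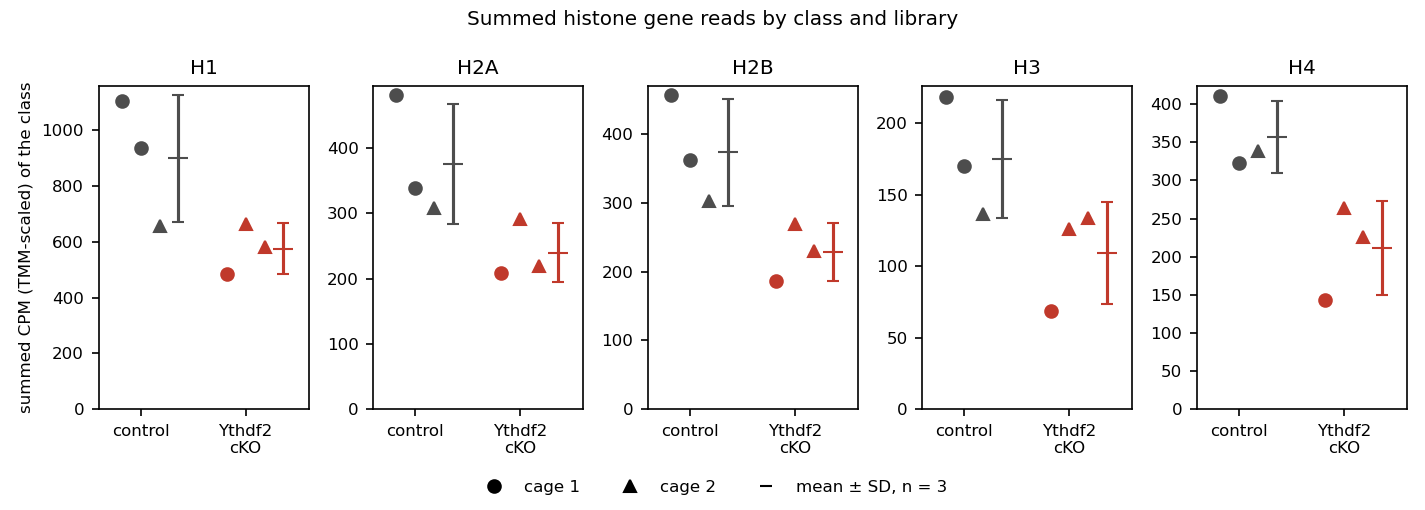
Summed TMM-scaled CPM of each histone class in each library, with control in grey and Ythdf2 cKO in red, circles for cage 1 and triangles for cage 2; bars are mean ± SD of 3 libraries. In every class control library 1 is the highest point and cKO library 1 the lowest.

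The makeup of the histone reads varied less than their level. H1 took 37.6% to 44.3% of histone counts over the 6 libraries, H2A 15.8% to 19.2%, H2B 16.5% to 17.4%, H3 6.30% to 9.61% and H4 13.2% to 19.4%. H2B was the steadiest class: its share was 17.2% ± 0.176 in controls and 16.8% ± 0.274 in cKO libraries (SD, n = 3 each). Control library 3 held the extremes of several shares. There H4 was at 19.4% and the Hist2 cluster at 13.4%, against at most 16.3% and 8.63% in the other libraries, and Hist1 was at 83.5% against at least 89.4%. The ratio of H1 to summed core histone CPM was 0.706, 0.782 and 0.603 in controls and 0.794, 0.696 and 0.718 in cKO libraries, with overlapping groups.

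In H1, H2A and H4 a single member took the largest share of the class in all 6 libraries. Hist1h1c took 43.7% ± 3.16 of H1 reads (SD over 6 libraries), and its level per length, 203 ± 54.3 CPM per kb of exon, was the highest of all members. Hist2h2ac, a member outside the Hist1 cluster, came next with 179 ± 59.3 CPM per kb and took 30.4% ± 4.70 of H2A reads. Hist1h4d took 47.7% ± 2.13 of H4 reads, between 45.8% and 51.5% in every library, at 118 ± 37.4 CPM per kb. H2B and H3 were spread over more members: Hist1h2bn led H2B with 17.2% ± 5.34 of its reads, and Hist1h3b led H3 with 18.2% ± 6.62. The level of Hist1h1d, 19.5 ± 6.44 CPM per kb, is set against a model of 7425 exon bases and is low for that reason, as it took 19.7% of H1 reads. The order of Hist1h1c, Hist2h2ac and Hist1h2af (160.1 ± 58.2 CPM per kb) is within the spread between libraries. Unique windows were 91.5% for Hist1h1c and 89.8% for Hist1h4d. They were 45.0% for Hist2h2ac, 39.6% for Hist1h3b, 13.6% for Hist1h2bn and 6.0% for Hist1h2af, which are not mostly unique. Levels and shares of such members are therefore uncertain.

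Within divergent pairs the balance of the 2 partners varied widely. Hist1h2ak and Hist1h2bn, whose starts lie 296 bases apart, were close to even, with a ratio of their CPM between 0.670 and 1.10 in the 6 libraries. At the other end, Hist2h2ac was 28.9 to 777 times its partner Hist2h2be, which had at most 3.25 CPM. The ratio of 777 is from control library 3, where Hist2h2be had 1 read, so the upper end is uncertain. These ratios are over whole genes and not per length, and Hist2h2be has a model of 2620 exon bases against 520 for Hist2h2ac.

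The genotype comparison asked which genes differ between cKO and control libraries. Of the 54 members tested, 52 had a log2 fold change below 0 (50.7% of all 13172 genes tested did), with a median of -0.69 against a median of -0.0049 over all genes. None passed the test: edgeR's quasi-likelihood test called 0 members at an adjusted p under 0.05, and it called 0.0% of all genes. DESeq2 and limma-voom also called 0 members and 0 genes. At an unadjusted p under 0.05, 12 members were lower, where 0.782% of all genes were, and 0 were higher, where 0.835% of all genes were. By the same measure DESeq2 had 17 members lower (0.987% of all genes) and limma-voom 15 (0.888%). With total counts in place of TMM the count was 4 (0.182% of all genes), and without control library 1 it was 6 (0.274%). For 17 members the 3 cKO libraries all lay below the 3 controls, as they did for 4.22% of all genes, and for none did they all lie above, as they did for 3.4% of all genes. The counts and medians are descriptions of members chosen with earlier results known. No member passed the filter through the control libraries alone, and among the 11 members with counts that did not pass it, the mean on the log2(CPM + 0.5) scale was lower in cKO libraries for 8.

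By class, the median log2 fold change was -0.68 for the 5 H1 members tested, -0.62 for 12 of H2A, -0.68 for 15 of H2B, -0.71 for 11 of H3 and -0.71 for 11 of H4. The cKO libraries all lay below the controls for 2, 2, 5, 3 and 5 members of these classes, where 4.22% of all genes were so placed. By cluster, the median was -0.67 for 44 members of Hist1, -0.77 for 7 of Hist2 and -0.42 for 2 of Hist3, and the value of the Hist4 member was -0.51. Single members ran from -2.08 (Hist1h4j) to 0.58 (Hist1h2bl), both at under 14 CPM in every library.

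**Figure D3:**
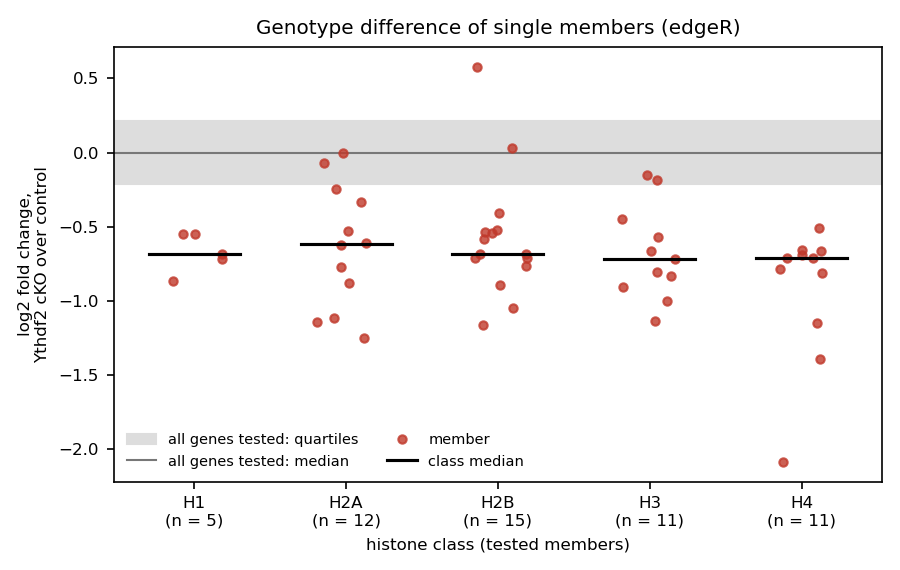
Log2 fold change of each of the 54 tested members (red points) from the edgeR fit, by class, with the class median (black bar) and the median and quartiles of all 13172 genes tested (grey line and band). The 5 class medians lie between -0.62 and -0.71, below the grey band, and 2 H2B members lie above 0.

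Among linker histones, the abundant Hist1h1c (ENSMUSG00000036181.2, chr13:23738808-23740367) was at 440.0, 408 and 282 CPM in controls and at 238, 278 and 258 CPM in cKO libraries. Every control library was above every cKO library, by only a few CPM in the case of control library 3 and cKO library 2. The log2 fold change was -0.55 ± 0.20 SE (edgeR adjusted p = 1.00). Hist1h1e was at 224, 219 and 184 CPM against 81.7, 128 and 135 CPM. Its model overlaps the same-strand models Hist1h2be and Gm11398, and 68.0% of its windows are unique, so part of its reads is uncertain. Its groups were well apart, and it ranked first among all members by p (-0.86 ± 0.21 SE, edgeR adjusted p = 1.00). Hist1h1b, another linker histone, was at 149.9, 108 and 29.98 CPM in controls and at 43.9, 76.1 and 55.5 CPM in cKO libraries. Control library 3 was the lowest of the 6, so the groups overlapped (-0.72 ± 0.52 SE). Hist1h1t, the linker histone known from the testis, did not pass the low-count filter and is named here after its values were seen. Most of its reads lay in control library 3 (57) and cKO library 3 (33). It was at 8.99 CPM in control library 3 and 3.43 CPM in cKO library 3, and at most 0.353 CPM in the other 4.

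Of H2A, Hist2h2ac (ENSMUSG00000068855.3, chr3:96220361-96220880) was at 137, 94.0 and 123 CPM in controls and at 64.0, 81.0 and 61.7 CPM in cKO libraries. The groups did not overlap (-0.77 ± 0.19 SE, edgeR adjusted p = 1.00). Hist1h2af was at 107, 69.2 and 55.5 CPM against 41.9, 61.7 and 48.0 CPM, and Hist1h2ak at 88.2, 65.4 and 22.9 CPM against 37.0, 41.4 and 36.3 CPM. In both the groups overlapped. The low members Hist2h2ab and Hist3h2a also had larger errors. Hist2h2ab was at 7.07, 4.53 and 10.7 CPM in controls and 0.491, 4.15 and 4.57 CPM in cKO libraries, with a slight overlap (-1.25 ± 0.78 SE). Hist3h2a, at 0.265, 1.49 and 3.16 CPM against 2.95, 0.579 and 1.14 CPM, gave no direction (-0.07 ± 1.07 SE).

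Of H2B, Hist1h2bb (ENSMUSG00000075031.4, chr13:23746734-23747241), whose promoter and stem-loop are printed above, varied little among controls, at 58.5, 53.0 and 55.4 CPM. It was at 40.9, 35.1 and 28.1 CPM in cKO libraries (-0.68 ± 0.19 SE, edgeR adjusted p = 1.00). The groups did not overlap. Hist2h2bb was at 36.5, 29.1 and 55.5 CPM against 12.4, 21.2 and 20.2 CPM, again without overlap (-1.16 ± 0.33 SE, edgeR adjusted p = 1.00). Its model is wholly covered by the antisense gene model Gm20628, and it has 0% unique windows, so its reads are uncertain. Hist1h2bn was at 92.2, 67.1 and 24.6 CPM in controls and 33.7, 38.7 and 54.2 CPM in cKO libraries, which overlapped (-0.54 ± 0.44 SE). Hist1h2bf, 1 of 2 tested members above 0, was at 7.15, 8.53 and 2.52 CPM against 11.5, 3.76 and 3.63 CPM (0.03 ± 0.66 SE). Hist3h2ba had 4.24, 3.86 and 3.00 CPM in controls and 0, 4.05 and 2.39 CPM in cKO libraries, also with overlap.

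Of H3, Hist1h3e was at 40.7, 32.3 and 26.5 CPM in controls and at 9.17, 23.4 and 17.0 CPM in cKO libraries, with no overlap (-0.999 ± 0.37 SE, edgeR adjusted p = 1.00). Hist1h3b, the most abundant of its class per length, was at 45.8, 42.7 and 16.4 CPM against 7.70, 17.7 and 34.5 CPM. Here control library 3 lay below 2 of the cKO libraries (-0.81 ± 0.58 SE). Hist1h3c was at 17.0, 13.3 and 12.3 CPM against 8.68, 12.8 and 15.9 CPM, and its difference was within the spread (-0.18 ± 0.33 SE). Hist2h3b, which lies under the same antisense model as Hist2h2bb, was at 13.4, 7.44 and 15.6 CPM against 2.46, 10.1 and 9.45 CPM, with overlap.

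Of H4, Hist1h4d (ENSMUSG00000061482.7, chr13:23581598-23582735) was at 191, 148 and 164 CPM in controls and at 68.3, 122 and 116 CPM in cKO libraries. The groups did not overlap (-0.71 ± 0.24 SE, edgeR adjusted p = 1.00). Hist1h4h was at 40.6, 28.6 and 25.2 CPM against 16.1, 19.0 and 18.9 CPM, also without overlap (-0.81 ± 0.25 SE, edgeR adjusted p = 1.00). Hist1h4f was at 24.5, 19.1 and 14.7 CPM against 16.2, 12.0 and 8.10 CPM, where cKO library 1 lay inside the control range (-0.69 ± 0.35 SE). Hist4h4, the single member on chromosome 6, was at 31.3, 26.3 and 48.9 CPM against 17.0, 28.4 and 29.2 CPM, and its groups overlapped (-0.51 ± 0.32 SE).

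Over both cages, the median fold change was much the same across features that the symbol rule did not use, but other measures differed. The median was -0.68 for the 20 tested members whose model ends within 200 bases of the stem-loop, -0.71 for 17 whose model runs on, and -0.68 for 17 with no match. The cKO libraries all lay below the controls for 7, 9 and 1 of these, beside 4.22% of all genes. Within cage 2, as defined below, the medians were -0.22, -0.46 and 0.28. Over both cages, the median was -0.68 for 30 mostly unique members and -0.71 for the other 24. The cKO libraries all lay below the controls for 12 and 5 of these. The level of H2A depended on members that share sequence: with only mostly unique members kept, the log2 ratio of its summed CPM was -0.23 in place of -0.65.

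The libraries of 1 group were far from alike. Control library 1 was the highest of the 6 for 37 of 54 members, and cKO library 1 was the lowest for 36. Both came from cage 1, and cKO library 1 had the fewest gene counts of the 6 libraries (5602053). The part of this lower depth in the values was not tested. On the log2 scale, the mean deviation of the 54 members from their own mean was 0.71, 0.38 and -0.01 in controls and -0.90, 0.13 and -0.30 in cKO libraries. For 39 S phase genes the same measure was 0.39, -0.05 and 0.01 in controls and -0.35, 0.06 and -0.06 in cKO libraries. For 20 mitosis genes it was 0.31, 0.01 and 0.25 in controls and -1.06, 0.17 and 0.31 in cKO libraries. In all 3 lists cKO library 1 was lowest, and control library 1 was highest or level with the highest. The part of cell cycle state in the histone difference was not tested.

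**Figure D4:**
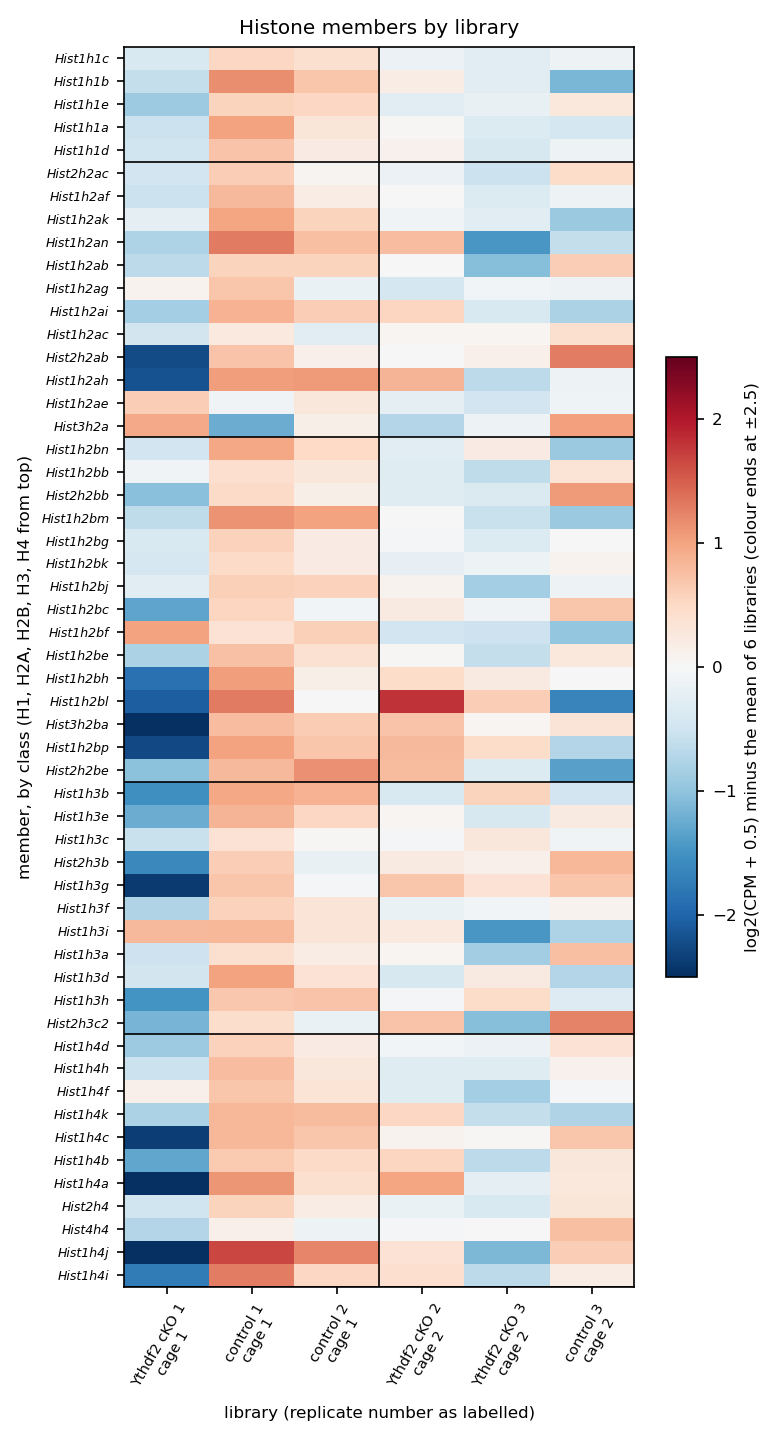
Log2(CPM + 0.5) of the 54 tested members in each library minus the mean of 6 libraries, with members in rows by class and libraries in columns by cage. Control library 1 is mostly red (highest for 37 members) and cKO library 1 mostly blue (lowest for 36), while the 3 cage 2 libraries are mixed.

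Within cages, the histone difference was large in cage 1 and small in cage 2. In cage 1, cKO library 1 against the mean of control libraries 1 and 2 gave a median log2(CPM + 0.5) difference of -1.29, with 50 of 54 members below 0 (55.6% of all genes were). In cage 2, the mean of cKO libraries 2 and 3 against control library 3 gave a median of -0.20, with 33 of 54 below 0 (50.8% of all genes). In both cages 31 of 54 were below 0, where 30.9% of all genes were. By class the medians in cages 1 and 2 were -1.19 and -0.02 for H1, -1.03 and -0.19 for H2A, -1.36 and 0.05 for H2B, -1.29 and -0.16 for H3, and -1.60 and -0.46 for H4. The 7 Hist2 members had medians of -1.35 in cage 1 and -0.79 in cage 2. Markers of other cells differed within cages too. All 10 melanoma markers were below 0 in both cages, with medians of -2.55 in cage 1 and -0.82 in cage 2. For 9 of them the interaction described next had an unadjusted p under 0.05 (edgeR quasi-likelihood test), as it did for 14.3% of all genes. The 10 macrophage and monocyte markers had medians of -1.46 and -2.67, with 9 and 10 below 0, and the interaction reached that p for 0 of them. The part of these cells in the histone difference was not tested. Each cage has 1 library in 1 of the groups, so these differences have no test of their own. With total counts in place of TMM, the mean summed histone CPM of cKO libraries 2 and 3 was 1.26 times that of control library 3 instead of 0.863 times. The direction of the difference in cage 2 therefore depends on the scaling.

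The difference between cages was tested as an interaction, with 2 residual degrees of freedom. It was called for 0 members and 0.0456% of all genes at an adjusted p under 0.05 (edgeR quasi-likelihood test). The difference was higher in cage 2 for 47 of 54 members at any p, where 59.5% of all genes were. At an unadjusted p under 0.05 this held for 28 members, where 11.0% of all genes did. DESeq2 called 6 of 54 members and 64 of 13172 genes. The interaction rests on cKO library 1 and control library 3, each the only library of its group in its cage, so a difference between cages and a difference of these libraries cannot be told apart.

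The 2 blocks of the Hist1 cluster differed in this respect. The first block (chr13:21715763-22043676) has 23 members, of which 17 were tested, and the second (chr13:23531050-23934851) has 31, of which 27 were tested. Both blocks had nearly the same genotype median, -0.66 and -0.68. The first block summed to 552, 417 and 160.0 CPM in controls and 189.7, 295 and 222 CPM in cKO libraries, so control library 3 was the lowest of all 6. The second block summed to 1855, 1517 and 1294 CPM in controls and 786, 1148 and 1022 CPM in cKO libraries, without overlap. As a share of histone counts, the first block was at 9.19% in control library 3 and at 15.99% to 20.7% in the others, a measure that the scaling does not touch. Within cage 2 the median difference was 0.53 in the first block, with 5 of 17 members below 0, and -0.25 in the second, with 20 of 27 below 0. Within cage 1 both were negative, at -1.60 and -1.19. The first block also held fewer mostly unique members among those tested, 5 of 17 against 20 of 27, and more models without a stem-loop, 10 against 3, and the part of these features in the difference was not tested. Member by member, cKO library 1 was the lowest of the 6 for 9 of the 17 tested in the first block and control library 3 for 4. The 5 mostly unique members of that block had mean deviations of 1.25, 0.82 and -0.40 in controls and -1.60, 0.35 and -0.42 in cKO libraries, so cKO library 1 was the lowest there and control library 3 was level with cKO library 3.

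**Figure D5:**
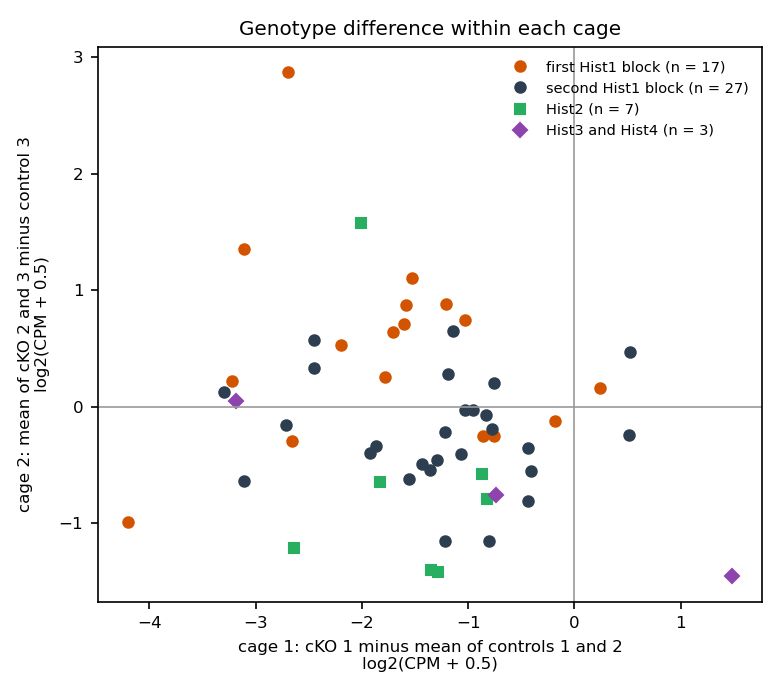
Log2(CPM + 0.5) difference between cKO and control libraries within cage 1 (x axis) and within cage 2 (y axis) for the 54 tested members, coloured by position. Most points lie left of 0 on the x axis (50 of 54), while on the y axis the first Hist1 block lies mostly above 0 (12 of 17) and the second mostly below (20 of 27).

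The cage term, cage 2 over cage 1 with the group in the fit, was called for 3 members (edgeR adjusted p under 0.05), where 11.5% of all genes were. Hist2h2bb (log2 difference 0.75 ± 0.21 SE, adjusted p = 0.0492) and Hist4h4 (0.76 ± 0.20 SE, adjusted p = 0.0405) were higher in cage 2, where 7.83% of all genes were called higher. Hist1h2bf was lower there (-1.63 ± 0.44 SE, adjusted p = 0.0440), where 3.68% of all genes were called lower. Each of these calls was lost when any 1 of the 6 libraries was left out. The median over the 54 members was 0.11, with 31 above 0 (50.8% of all genes were), and all genes had a median of 0.013. Without cKO library 1 the members' median was -0.47 and without control library 3 it was 0.69, so these libraries decide its direction. All 10 melanoma markers were called higher in cage 2 and 4 of 6 Treg markers lower, and the part of other cells in the cage values of the members was not tested.

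Genes around the histone supply were described from lists chosen with earlier results of these data known. Of 9 variant histones tested, whose mRNAs are mostly polyadenylated and made outside S phase too, 6 were below 0 with a median of -0.26 in the genotype comparison. H2afx, which marks DNA breaks when phosphorylated, was at 66.7, 57.3 and 67.1 CPM in controls and 29.97, 48.1 and 49.3 CPM in cKO libraries, with no overlap (-0.58 ± 0.23 SE, edgeR adjusted p = 1.00). H2afv was at 40.6, 39.3 and 34.1 CPM against 32.6, 16.6 and 29.2 CPM, also apart. For H2afz, at 178, 154 and 119.8 CPM against 114, 131 and 119 CPM, and for H1f0 the groups overlapped.

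Of 22 stem-loop processing and decay factors tested, 21 were below 0 but with a median of only -0.13. Slbp, the stem-loop binding protein, was at 88.2, 80.6 and 80.2 CPM in controls and 82.5, 80.1 and 70.5 CPM in cKO libraries, with overlap (-0.10 ± 0.14 SE). The 4 with the smallest p were Cpsf2, Cstf2, Snrpb and Snrpf, with log2 fold changes from -0.25 to -0.15. Of 13 genes for histone gene transcription, 9 were below 0 with a median of -0.10. Npat, the coactivator of histone transcription at histone locus bodies, was at 47.9, 44.4 and 38.7 CPM against 40.5, 40.2 and 37.3 CPM (-0.15 ± 0.17 SE). Coil, the scaffold of Cajal bodies, was at 9.63, 9.68 and 8.68 CPM against 3.44, 3.96 and 8.41 CPM and did not overlap (-0.82 ± 0.45 SE). Of 21 histone chaperones, 17 were below 0 with a median of -0.19. Nap1l1, a chaperone of H2A and H2B, was at 390.3, 319 and 357 CPM against 225, 305 and 316 CPM (-0.33 ± 0.18 SE).

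Of 39 S phase genes, 32 were below 0 with a median of -0.21, and Dnmt1, Timeless, Dut and Uhrf1 had the smallest p. Timeless, which protects replication forks, was at 61.6, 34.8 and 32.0 CPM in controls and 14.1, 34.5 and 28.1 CPM in cKO libraries, with overlap. Of 20 mitosis genes, 17 were below 0 with a median of -0.30. No gene of these lists passed the genotype test. For the cage term, 7.83% of all genes were called higher in cage 2. So were 1 of 39 S phase genes, 1 of 13 genes for histone gene transcription and 3 of 20 mitosis genes. The genes called in these lists were Cdk2 (2.02) and Mcm2 (0.74) and the mitosis genes Cdk1 (0.85), Bub1 (1.79) and Cenpf (1.25), as log2 differences (edgeR adjusted p from 0.000559 to 0.0492). Within cage 1 the medians of the S phase and mitosis lists were -0.38 and -1.27, and within cage 2 they were -0.04 and 0.06, beside -1.29 and -0.20 for the histone members.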

How the data were processed

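For each of the 6 libraries the authors deposited raw read counts by gene, with no scaling. RNA was made into libraries with a stranded total RNA kit, per the labels' protocols. Trimmomatic 0.39, HISAT2 2.1.0, HTSeq and DESeq2 and the build mm10 are named in the submitters' processing notes. Neither the annotation release nor the strand setting of the counting is stated there, so reads of overlapping or antisense models are uncertain. Of 54446 identifiers, 54409 matched GENCODE M21. Rows that name no gene stayed out. They held 24.6% to 35.8% (no feature), 1.43% to 2.21% (ambiguous) and 9.22% to 12.9% (not unique alignments) of all records, and the last kind bears most on near-identical histone copies. Every pair of libraries of a group differed by more than sampling noise (lowest chi-square over degrees of freedom 17.4).

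Genes were filtered with filterByExpr (minimum count 10, minimum total 15), scaled by TMM and tested with edgeR 4.0.16 (quasi-likelihood, R 4.3.3), all 6 libraries in 1 fit, with Benjamini-Hochberg adjustment over all 13172 genes and a threshold of 0.05. The SE is the absolute fold change over the square root of F. The members and lists were chosen with earlier results of these data known. Named members were, in each class, the 3 most abundant per kb and those with the smallest p for genotype and for cage, with those past the threshold and those of Hist3 and Hist4. From each other list up to 4 genes with the smallest p were named. Slbp, Npat, Hist1h1t, Hist1h1d, Hist1h4j, Hist1h2bl and the mitosis genes were added once their values were known. The alternatives used DESeq2 1.42.0, limma-voom (limma 3.58.1), other scalings and filters, cage as a term, a replicate block and each library left out.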

Additional observations from a re-analysis of the deposited data

How the results depend on the processing

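The members' median genotype difference stayed below 0 under all 16 alternatives and ran from -0.91 (without cKO library 2) to -0.50 (without cKO library 1) when single libraries were left out. No setting gave a histone member an adjusted p under 0.05 for genotype, and with no low-count filter 33 of all genes passed. Deviations of same-numbered libraries correlated at 0.41, -0.24 and 0.55, and the pair at -0.24 spans the cages. Pairs with other numbers from the same cage correlated at 0.46 and 0.27, and every pair across cages was negative. The sign went with the cage, so these values give no ground to pair libraries by number. With the replicate number as a block the members' median was -0.71 and no gene was called. The 12 members lower at an unadjusted p under 0.05 (0.782% of all genes) became 4 with total counts (0.182%), 22 with no filter (0.953%), 19 with cage as a term (5.9%), and, with 1 library left out, 6 (without control 1, 0.274%) to 21 (without control 3, 1.43%). Total counts also shifted the median of all genes by 0.15 for genotype and -0.34 for cage, and no filter by 0.22 for cage. The 1516 genes called for cage (11.5% of 13172) became 2349 of 13172 with DESeq2 and 2347 of 27600 with no filter. They became 849 of 13172 with cage as the only term and 660 to 1234 with 1 library left out. For the interaction DESeq2 called 64 of 13172 genes and 6 of 54 members.

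The members' cage median of 0.11 turned to -0.16 with limma-voom, -0.22 with total counts and -0.32 with cage as the only term, and ran from -0.47 to 0.69 with 1 library left out. The 3 members called for cage became 6 with DESeq2, 1 with limma-voom, 1 with total counts, 7 with no filter, 0 with cage as the only term, and 0 to 7 with 1 library left out. Over these settings the genes called for cage among all genes ran from 660 to 2349, as given above. For genotype, Hist3h2a turned to 0.18 with limma-voom, 0.25 with total counts and, with 1 library left out, ran from -0.90 (without cKO 1) to 0.81 (without control 3), with 0.31 without cKO 2 and 0.10 without cKO 3. Hist1h2bf turned to -0.40 with limma-voom and, with 1 library left out, ran from -0.73 (without cKO 1) to 0.35 (without control 2), with -0.31 without control 3. Hist1h3c turned to 0.011 without cKO 1. For cage, Hist1h1b turned to 0.60 without control 3 and ran down to -2.11 without cKO 1. With only mostly unique members, an alternative chosen after seeing the data, the H2A log2 ratio was -0.23 and the share of Hist1h4d in H4 was 51.1%. Uniqueness in the genome was not run, because no genome sequence was used here. The cause of these changes was not tested. Members with few reads, such as those at 0 in cKO library 1, have the widest errors.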
